A study of Homo sapiens with 8 samples.

Results

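Gene expression in the leukemic line U937 was compared with that in the prostate cancer line PC3M, with 2 libraries of each line, 4 of the 8 libraries of the series. The libraries were picked by the line named in their labels. A gene was tested when 2 or more of the 8 libraries had it at 0.5 FPKM or above, which held for 16295 of 23615 genes. U937 is a human line of monocytic character that grows in suspension, and its cells were untreated and grown in RPMI medium with penicillin, streptomycin and heat-inactivated serum. PC3M is a metastatic derivative of the PC-3 prostate carcinoma line, a carcinoma that grows attached. Its cells, also untreated, were named PC3M-LN4 in the culture notes and had L-glutamine added to the same medium. The other 4 libraries came from the endothelial line EaHy and from HEK293, of embryonic kidney. U937, EaHy and PC3M bind epoxyeicosatrienoic acids (EETs), lipid epoxides made from arachidonic acid, and HEK293 does not, and the libraries served a search for the receptor of EETs among G protein-coupled receptors (GPCRs). Total RNA of cells collected in duplicate was sequenced after depletion of ribosomal RNA. No label says that the duplicates were separate cultures, so the p-values speak of the spread among these libraries alone. A single line stands for each cell type here, and the medium differs with the line.

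Blood cells and epithelia build the same cell functions from different genes. Myeloid cells are set up by transcription factors such as PU.1 and C/EBP proteins, store proteases in granules, and move by a set of actin and GTPase regulators made mainly in blood. Epithelial cells join each other by cadherin junctions and desmosomes, carry keratin filaments, hold on to the matrix through integrins and answer to growth factors through receptor tyrosine kinases. Many of these proteins come in pairs of related genes, with a form used in blood cells and a form used in most other tissues.

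Values are given in FPKM, a read density per transcript length and per mapped library, as deposited. Both PC3M libraries differed from the U937 libraries in make-up, so 2 scales are used. Small RNA genes held 51.4% and 19.9% of all FPKM in U937, against 65.2% and 81.8% in PC3M, and replication histone genes held 0.14% and 0.0192% in U937, against 5.79% and 3.22% in PC3M. Upper-quartile scaling divides each library by the 75th percentile of its tested genes. That percentile was 12.8 and 20.5 FPKM in U937, against 11.05 and 4.051 FPKM in PC3M, so PC3M replicate 2 was raised most. The median log2 difference over all tested genes, U937 minus PC3M on log2(FPKM + 0.5), was 0.94 as deposited and 0.15 after scaling. The replicates correlated at r = 0.874 in U937 and 0.843 in PC3M across genes, which are not independent replicates, and libraries of the 2 lines at 0.525 to 0.645. The depth in counts is unknown. A gene listed at 0 is only listed so, and no fold change is given against a line at 0 in both libraries.

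Between U937 and PC3M, marker genes followed the labels for blood and epithelium, and less so for prostate. Summed over 19 monocytic markers the FPKM was 2347 and 4653 in U937, against 14.9 and 10.2 in PC3M. Over 12 epithelial markers it was 9.63 and 2.16 in U937, against 528 and 146 in PC3M. The epithelial sum was not particular to PC3M, at 1363 and 769 FPKM in EaHy and 95.8 and 110 FPKM in HEK293. Of 7 prostate luminal markers, 1 reached 0.5 FPKM in each PC3M library, the transcription factor gene HOXB13.

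Between the lines, 2809 genes (17.2%) were higher and 745 (4.57%) were lower in U937 as deposited, by limma fitted to all 8 libraries at a Benjamini-Hochberg adjusted p under 0.05. After scaling, 2086 (12.8%) were higher and 2003 (12.3%) were lower. A total of 2027 genes (12.4%) were higher on both scales and 738 (4.53%) were lower on both. Scaling removed 782 calls of higher genes and 7 of lower genes, and it added 59 higher and 1265 lower ones. Single libraries moved these counts. As deposited, 859 genes were higher and 229 lower with U937 replicate 1 left out, and 831 and 201 with U937 replicate 2 left out. With PC3M replicate 1 left out 4786 were higher and 617 lower, and with PC3M replicate 2 left out 843 and 698. Leaving out a HEK293 library gave 1394 and 459, or 1401 and 458. After scaling, the counts with U937 replicate 1 left out were 778 higher and 893 lower, and those with U937 replicate 2 left out 1321 and 1084. With PC3M replicate 1 left out they were 1751 and 2175, and with PC3M replicate 2 left out 880 and 1128. A gene called higher or lower below passed on both scales unless a scale is named. Counts in the gene lists below are to be read beside the shares of all tested genes given here. Where single libraries were left out, the counts (the one with all libraries included) and adjusted p are those as deposited, a lone library being assumed to vary like the other lines. Of the 2027 genes higher in U937, 890 (43.9%) were under 0.5 FPKM in both PC3M libraries. Of the 738 lower genes, 467 (63.3%) were under 0.5 FPKM in both U937 libraries. U937 stood above all EaHy and HEK293 libraries as well for 1120 (55.3%) of its higher genes on scaled values, and PC3M did so for 404 (54.7%) of the genes lower in U937.

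**Figure D1:**
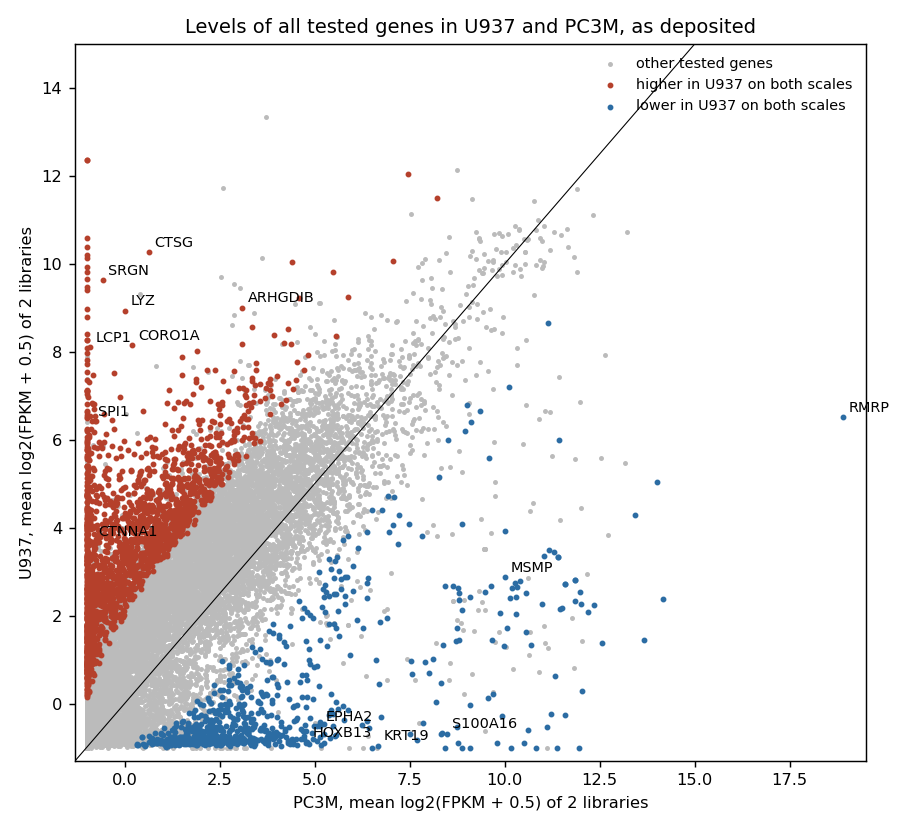
Mean log2(FPKM + 0.5) of the 2 U937 libraries (vertical axis) against that of the 2 PC3M libraries (horizontal axis) for the 16295 tested genes, as deposited, with the line of equal levels drawn. Red points are the 2027 genes higher in U937 on both scales and blue points the 738 lower ones. Many coloured points lie along an edge, where the other line is at or near 0.

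Among called genes, small RNA, histone and unnamed genes left aside, ELANE and SRGN were among those with the largest log2 differences toward U937, and S100A16 and UCHL1 among those toward PC3M. ELANE, neutrophil elastase, stood at 501 and 904 FPKM in U937, against 0 and 0 FPKM in PC3M. SRGN, serglycin, the proteoglycan that packs granules, had 408 and 1544 FPKM in U937, against 0.214 and 0.13 FPKM in PC3M (log2 difference 10.21 ± 0.89 as deposited and 9.62 ± 0.67 after scaling, SE, n = 2 per line, limma adjusted p = 0.000462 and 0.000368). In the other direction S100A16, a calcium-binding protein, was at 0.124 and 0.123 FPKM in U937, against 371 and 339 FPKM in PC3M (log2 difference −9.15 ± 0.61 as deposited and −10.22 ± 0.61 after scaling, limma adjusted p = 0.000344 and 0.000329). UCHL1, a ubiquitin hydrolase of neurons that carcinoma lines can also make, stood at 0.601 and 0 FPKM in U937, against 456 and 118 FPKM in PC3M (log2 difference −8.29 ± 0.86 as deposited and −9.30 ± 0.50 after scaling). In each of these genes both libraries of a line lay far from both libraries of the other. The 15 with the largest differences toward U937 also held CTSG, LAPTM5, LCP1, LYZ, PRTN3, MT1G, CST7, PLEK, AZU1, CORO1A, GFI1, GTSF1 and RNASE2. The 15 in the other direction also held PRAC, PRSS3, KRT19, MSMP, CRABP2, PRDX2, PFN2, SFN, ALDH1A3, S100A13, NBL1, ARHGAP29 and KRT18. MT1G, a metallothionein with close copies that can share its reads, was at 116 and 390.1 FPKM in U937, against 0 and 0 FPKM in PC3M. MT1G (0.0568 and 0.0928 without U937 replicate 1 or 2, 0.086 without PC3M replicate 2) lost the call when that library was left out, with the limma adjusted p in parentheses.

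Most blood transcription factors were higher in U937. This list and those of granule, monocyte surface and leukocyte signalling genes were chosen with earlier results of these data known. A gene made in U937 could pass the filter through U937 alone, so the shares called are no measure of these lists. Of 21 tested members, 15 were higher and 1 was lower, with a median log2 difference of 4.68 as deposited and 4.05 after scaling. SPI1, which encodes PU.1, the factor that commits cells to the myeloid line, had 51.0 and 143 FPKM in U937, against 0 and 0.12 FPKM in PC3M (log2 difference 7.27 ± 0.91 as deposited and 6.75 ± 0.87 after scaling, limma adjusted p = 0.00198 and 0.00282). GFI1, a repressor needed for granulocyte formation, was at 115 and 137 FPKM in U937, against 0.03 and 0 FPKM in PC3M (log2 difference 7.93 ± 0.55 as deposited and 7.67 ± 0.41 after scaling). IRF8, a factor of monocytes and dendritic cells, stood at 83.8 and 68.2 FPKM in U937, against 0 and 0.0794 FPKM in PC3M (log2 difference 7.14 ± 0.50 as deposited and 6.69 ± 0.51 after scaling). LYL1, a factor of early blood cells, had 63.1 and 136 FPKM in U937, against 0.189 and 0 FPKM in PC3M (log2 difference 7.31 ± 0.63 as deposited and 7.02 ± 0.46 after scaling). For all of these, each U937 library was above 50 FPKM and each PC3M library was under 0.2 FPKM. The exception in direction was CEBPD, a C/EBP factor of inflammation that many tissues make, at 0.522 and 0.232 FPKM in U937, against 31.8 and 2.56 FPKM in PC3M (log2 difference −3.52 ± 0.99 as deposited and −4.52 ± 0.70 after scaling, limma adjusted p = 0.0391 and 0.00582), and is named because it alone went the other way. Bulk RNA cannot tell fewer cells with a transcript from less of it in each cell. Blood factors called higher numbered 16 with all libraries, 14 without U937 replicate 1, 13 without U937 replicate 2, 16 without PC3M replicate 1 and 12 without PC3M replicate 2. CEBPD (0.121 and 0.17 without U937 replicate 1 or 2, 0.0697 and 0.07 without HEK293 replicate 1 or 2) lost the call when that library was left out, with the limma adjusted p in parentheses.

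Granule genes had the largest median difference toward U937 of the lists examined. Of 14 tested members, 13 were higher and none lower, with a median log2 difference of 8.03 as deposited and 7.38 after scaling. Without the 4 genes at 0 in both PC3M libraries it was 6.87 as deposited. CTSG, cathepsin G, was at 1184 and 1277 FPKM in U937, against 0.104 and 3.53 FPKM in PC3M (log2 difference 9.62 ± 1.21 as deposited and 8.54 ± 1.48 after scaling, limma adjusted p = 0.00202 and 0.00874). LYZ, lysozyme, which splits bacterial cell walls, stood at 189 and 1261 FPKM in U937, against 0.285 and 0.802 FPKM in PC3M (log2 difference 8.92 ± 0.89 as deposited and 7.96 ± 0.83 after scaling). CST7, a cystatin that restrains cathepsins in leukocytes, had 147 and 184 FPKM in U937, against 0 and 0 FPKM in PC3M (limma adjusted p = 0.000344 and 0.000317). RNASE2, the eosinophil-derived neurotoxin, was at 133 and 254 FPKM in U937, against 0 and 0.881 FPKM in PC3M (log2 difference 7.79 ± 0.64 as deposited and 6.88 ± 0.83 after scaling). Lysozyme was the least even of them within U937, and no PC3M library came near either U937 library for any of the 4. Granule members called higher numbered 13 with all libraries, 12 without U937 replicate 1, 12 without U937 replicate 2, 13 without PC3M replicate 1 and 13 without PC3M replicate 2.

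Among these granule genes, 3 lie side by side. In the RefSeq gene order AZU1, PRTN3 and ELANE follow each other, with CFD, complement factor D, next. AZU1, azurocidin, stood at 177 and 144 FPKM in U937, against 0 and 0.0473 FPKM in PC3M. PRTN3, proteinase 3, had 136 and 372 FPKM in U937, against 0 and 0 FPKM in PC3M. ELANE, given above, completed the row and was at 0 in both PC3M libraries. CFD stood at 21.3 and 23.6 FPKM in U937, against 8.86 and 1.05 FPKM in PC3M, and its log2 difference 2.59 ± 0.85 as deposited and 1.51 ± 0.53 after scaling did not pass (limma adjusted p = 0.0603 and 0.0789). AZU1, PRTN3 and ELANE were thus at or near 0 in PC3M, whereas CFD was present in both PC3M libraries. CFD is named for its place, after its values were seen.

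Monocyte surface proteins were higher in U937 as well. Of 24 tested members (33 listed), 22 were higher and none lower, with a median log2 difference of 3.83 as deposited and 3.56 after scaling. CD4, which monocytes carry besides T helper cells, was at 80.7 and 105.1 FPKM in U937, against 0 and 0.0605 FPKM in PC3M (log2 difference 7.45 ± 0.54 as deposited and 7.04 ± 0.49 after scaling, limma adjusted p = 0.000344 and 0.000368). CD37, a tetraspanin of leukocytes, stood at 52.7 and 54.5 FPKM in U937, against 0 and 0 FPKM in PC3M (limma adjusted p = 0.00168 and 0.00221). LAIR1, an inhibitory receptor for collagens, stood at 36.1 and 43.7 FPKM in U937, against 0.197 and 0.3 FPKM in PC3M (log2 difference 5.75 ± 0.59 as deposited and 5.00 ± 0.56 after scaling), and CD300LF, an inhibitory receptor for lipids, stood at 17.7 and 39.8 FPKM in U937, against 0 and 0.378 FPKM in PC3M (log2 difference 5.35 ± 0.53 as deposited and 4.60 ± 0.60 after scaling). Surface members called higher numbered 23 with all libraries, 20 without U937 replicate 1, 15 without U937 replicate 2, 21 without PC3M replicate 1 and 14 without PC3M replicate 2.

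The list of leukocyte signalling proteins had the highest share of members called. Its members were chosen with earlier results known and could pass the filter through U937 alone, so this share is no measure of the list. Of 48 tested members, 46 were higher in U937 and none was lower, with a median log2 difference of 5.31 as deposited and 4.83 after scaling. Those called higher numbered 47 with all libraries, 44 without U937 replicate 1, 43 without U937 replicate 2, 46 without PC3M replicate 1 and 42 without PC3M replicate 2. By role, 9 of 9 tyrosine phosphatases and kinases, 12 of 14 adaptors and lipid signalling proteins and 25 of 25 GTPase and actin regulators were higher. LAPTM5, a lysosomal protein of blood cells, had 204 and 461 FPKM in U937, against 0 and 0 FPKM in PC3M (limma adjusted p = 0.00043 and 0.00033). CORO1A, coronin 1A, which remodels actin in leukocytes, was at 165 and 489 FPKM in U937, against 1.07 and 0.349 FPKM in PC3M (log2 difference 7.95 ± 0.91 as deposited and 7.10 ± 0.71 after scaling, limma adjusted p = 0.00133 and 0.00108). GMFG, an actin debranching factor, stood at 105.3 and 103 FPKM in U937, against 0.165 and 0 FPKM in PC3M (log2 difference 7.504 ± 0.72 as deposited and 7.22 ± 0.78 after scaling). PLEK, pleckstrin, a substrate of protein kinase C in platelets and leukocytes, had 154 and 204 FPKM in U937, against 0 and 0.128 FPKM in PC3M (log2 difference 8.31 ± 0.51 as deposited and 7.78 ± 0.46 after scaling).

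**Figure D2:**
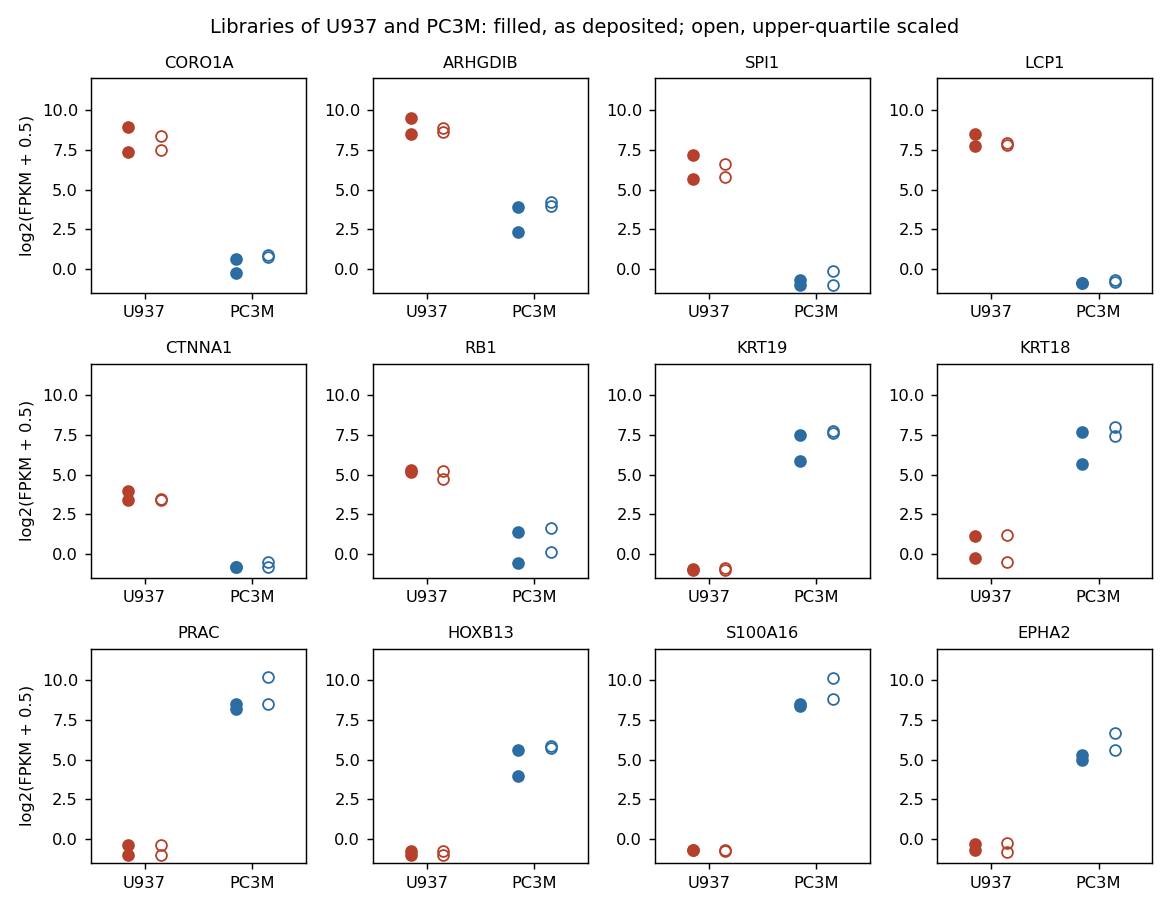
Level of 12 genes in each library, as log2(FPKM + 0.5), with U937 left of PC3M. Filled points are values as deposited and open points values after upper-quartile scaling, 1 point per library. In all 12 panels the U937 and PC3M libraries do not overlap on either scale, and the gap is narrowest for RB1.

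Some promoters of the leukocyte signalling genes held a word that PU.1 is known to bind, and these are shown since SPI1 itself differed between the lines. The word GAGGAAGT was searched on both strands in the 250 bases before the RefSeq start of each gene (GRCh38.p14). It was found in 2.13% of 27305 RefSeq promoters and 2.12% of the 10874 promoters of tested genes. It was found in 53 of 1377 promoters (3.85%) of genes higher in U937 and in 7 of 458 (1.53%) of genes lower in U937. Among leukocyte signalling genes, 7 of 40 promoters (17.5%) held it, among granule genes 1 of 8 and among monocyte surface genes 2 of 26 (7.69%). These lists were chosen with earlier results of these data known. None of 17 promoters of the blood transcription factor list held it. As other words, the CCAAT box stood in 32.4% of the promoters of higher genes and 33.6% of those of lower genes, and TGANTCA, a word of AP-1, in 4.94% and 6.77%. The windows of 60 bases of the 8 signalling and granule genes follow, 5′ to 3′ on the strand of the gene. The word or its reverse complement is in capitals. BTK held 2 matches, and its window shows the one nearer the start.
VAV1, chr19:6772648-6772707, plus strand: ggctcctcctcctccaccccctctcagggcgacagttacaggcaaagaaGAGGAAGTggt
INPP5D, chr2:233060253-233060312, plus strand: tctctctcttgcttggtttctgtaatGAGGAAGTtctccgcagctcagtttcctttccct
LCP1, chr13:46182337-46182396, minus strand: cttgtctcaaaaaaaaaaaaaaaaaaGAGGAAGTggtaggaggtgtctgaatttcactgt
LCP2, chr5:170297824-170297883, minus strand: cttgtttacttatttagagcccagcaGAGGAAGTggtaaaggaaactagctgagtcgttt
BTK, chrX:101390797-101390856, minus strand: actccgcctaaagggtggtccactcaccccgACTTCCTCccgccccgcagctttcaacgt
PIK3CG, chr7:106865261-106865320, plus strand: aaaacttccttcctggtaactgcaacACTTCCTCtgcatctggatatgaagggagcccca
ARHGAP25, chr2:68734712-68734771, plus strand: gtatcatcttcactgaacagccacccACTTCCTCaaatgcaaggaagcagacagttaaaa
PRTN3, chr19:840885-840944, plus strand: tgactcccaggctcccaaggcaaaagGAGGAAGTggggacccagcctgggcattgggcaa

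A match in these windows is a description of letters and not a binding site. VAV1, an exchange factor for small GTPases, stood at 22.0 and 54.2 FPKM in U937, against 0 and 0 FPKM in PC3M (limma adjusted p = 0.000607 and 0.000342), and its match began 11 bases before the start. INPP5D, the inositol phosphatase SHIP1, was at 45.4 and 50.7 FPKM in U937, against 0 and 0.00635 FPKM in PC3M (log2 difference 6.59 ± 0.46 as deposited and 6.32 ± 0.40 after scaling). LCP1, the leukocyte plastin, stood at 209 and 360.3 FPKM in U937, against 0.0417 and 0.0328 FPKM in PC3M (log2 difference 8.999 ± 0.61 as deposited and 8.64 ± 0.49 after scaling, limma adjusted p = 0.000344 and 0.000317). The genes LCP2, an adaptor of immune receptors, BTK, a kinase of myeloid and B cells, PIK3CG, a lipid kinase driven by GPCRs, and ARHGAP25, a Rac regulator, were taken for the word in their promoters and stand outside the naming rule. LCP2 had 38.8 and 55.1 FPKM in U937, against 0 and 0.053 FPKM in PC3M. BTK was at 26.4 and 39.3 FPKM in U937, against 0 and 0 FPKM in PC3M. ARHGAP25, the lowest of the group in U937, stood at 6.64 and 6.95 FPKM in U937, against 0.0561 and 0.186 FPKM in PC3M. PIK3CG stood at 17.7 and 15.2 FPKM in U937, against 0 and 0 FPKM in PC3M. All of them passed on both scales, at limma adjusted p of 0.000344 for LCP2, 0.000359 for BTK, 0.000601 for PIK3CG and 0.000819 for ARHGAP25 as deposited.

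Pairs of related genes allow a comparison within each library. For 21 pairs the log2 ratio of the blood form to the widely used form, from FPKM + 0.5, was taken within each library, with no test. In 20 of the 21 pairs both U937 ratios were above both PC3M ratios. Each pair was set up around a form used in blood cells. Some of these forms, such as LCP1 and CORO1A, are in the leukocyte signalling list, chosen with earlier results known. A blood line was thus likely to have the higher ratio, so this count is no measure of the pairs. For the plastins, which bundle actin, LCP1 over PLS3 was 7.80 and 9.42 in U937, against −7.01 and −4.91 in PC3M. For the kindlins, which activate integrins, FERMT3 over FERMT2 was 5.93 and 7.39 in U937, against −4.67 and −5.43 in PC3M. For the cortactin family, HCLS1 over CTTN was 5.52 and 7.13 in U937, against −5.81 and −4.22 in PC3M. In these pairs the forms changed places, with the blood form above the other in U937 and below it in PC3M. In others the widely used form was present in both lines. The ratio of CORO1A to CORO1C was 2.19 and 3.04 in U937, against −4.46 and −4.24 in PC3M, with CORO1C itself at 35.9 and 59.1 FPKM in U937, against 34.0 and 15.5 FPKM in PC3M. The ratio of RAC2 to RAC1, small GTPases that drive actin growth, was 0.64 and −0.22 in U937, against −1.65 and −2.04 in PC3M, the U937 values on both sides of 0. ARHGDIB over ARHGDIA, inhibitors that hold small GTPases in the cytosol, differed least among the pairs that ran toward U937 besides ARHGEF6 over ARHGEF7, at 2.01 and 0.88 in U937, against 0.13 and 0.33 in PC3M. ARHGDIB nevertheless stood at 366 and 718 FPKM in U937, against 14.4 and 4.4 FPKM in PC3M (log2 difference 5.91 ± 0.91 as deposited and 4.69 ± 0.62 after scaling), the highest level of any blood form of the pairs in U937.

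The other pairs described followed the same order. For the WAVE complex, NCKAP1L over NCKAP1 was 6.42 and 6.86 in U937, against −5.14 and −3.05 in PC3M. For class I myosins, MYO1F over MYO1E was 4.97 and 5.09 in U937, against −3.88 and −1.70 in PC3M, and for Rac exchange factors, DOCK2 over DOCK1 was 4.92 and 5.48 in U937, against −3.19 and −1.54 in PC3M. For the G protein alpha subunits that reach phospholipase C, GNA15 over GNA11 was 2.53 and 3.57 in U937, against −5.06 and −2.50 in PC3M. GNA15 serves many receptors of blood cells. For the WASP proteins, WAS over WASL was 3.75 and 5.95 in U937, against −2.53 and −1.002 in PC3M. For the phosphatases SHP1 and SHP2, PTPN6 over PTPN11 was −0.31 and −0.07 in U937, against −2.41 and −2.26 in PC3M. It was below 0 in all 4 libraries. For the glucose carriers GLUT3 and GLUT1, SLC2A3 over SLC2A1 was 0.51 and −2.38 in U937, against −5.18 and −4.67 in PC3M, with the U937 libraries far apart. The pairs VAV1 over VAV2, INPP5D over INPPL1, PIK3CD over PIK3CA, PLCG2 over PLCG1 and ELMO1 over ELMO2 had U937 ratios above 0 and PC3M ratios below 0, as did ITGB2 over ITGB1.

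**Figure D3:**
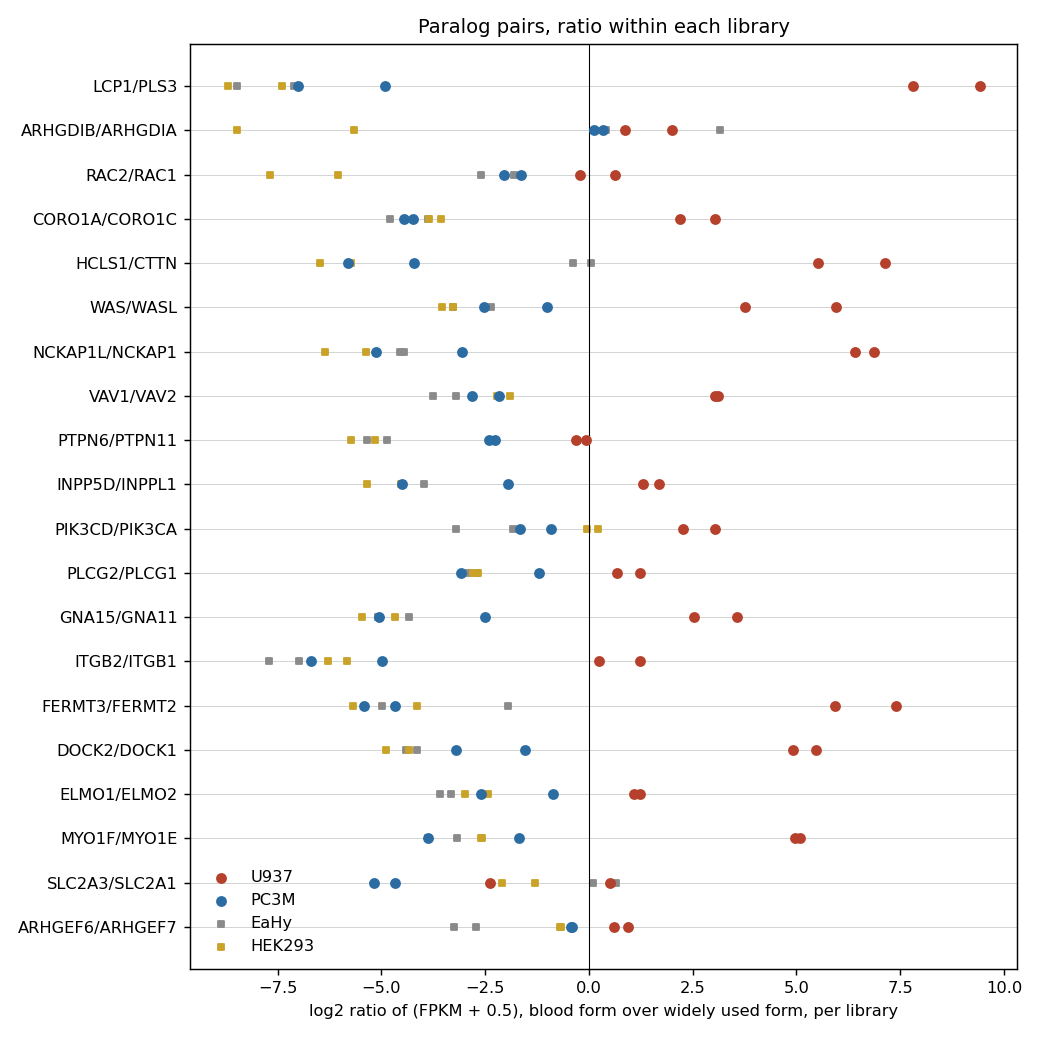
Log2 ratio of (FPKM + 0.5) of the blood form to the widely used form of 20 paralog pairs, 1 point per library, with a line at equal levels. Red U937 points lie right of blue PC3M points in the 20 pairs drawn, and the 1 pair of the 21 with another order is not drawn. EaHy and HEK293 libraries are drawn as small squares.

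Receptors and sensors of blood cells were higher in U937 in part. Of 20 tested hematopoietic cytokine receptors (24 listed), 8 were higher and 1 was lower, beside 12.4% and 4.53% of all tested genes. A cytokine receptor made in U937 could pass the filter through U937 alone, so these shares are no measure of the list. IL2RG, the common gamma chain, had 71.1 and 56.8 FPKM in U937, against 0 and 0 FPKM in PC3M (limma adjusted p = 0.000344 and 0.000454). TNFRSF1B, a receptor of tumour necrosis factor, was at 13.8 and 45.6 FPKM in U937, against 0 and 0.547 FPKM in PC3M (log2 difference 5.15 ± 0.71 as deposited and 4.32 ± 0.79 after scaling). CSF3R, the G-CSF receptor, stood at 16.6 and 11.46 FPKM in U937, against 0 and 0.677 FPKM in PC3M (log2 difference 4.22 ± 0.52 as deposited and 3.36 ± 0.81 after scaling). CSF2RB, the common beta chain, stood at 3.76 and 7.49 FPKM in U937, against 0 and 0 FPKM in PC3M. The lower one, named for its direction, was LIFR, the receptor of leukemia inhibitory factor, at 0.0875 and 0.00352 FPKM in U937, against 4.01 and 0.963 FPKM in PC3M (log2 difference −2.24 ± 0.60 as deposited and −3.05 ± 0.49 after scaling). Receptors called higher numbered 10 with all libraries, 7 without U937 replicate 1, 6 without U937 replicate 2, 9 without PC3M replicate 1 and 4 without PC3M replicate 2. LIFR (0.121 and 0.162 without U937 replicate 1 or 2, 0.0664 without PC3M replicate 1, 0.0664 and 0.0681 without HEK293 replicate 1 or 2) lost the call when that library was left out, with the limma adjusted p in parentheses.

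The NADPH oxidase, which makes the oxidative burst of phagocytes, had 5 of 7 tested genes (10 listed) higher in U937 and none lower. The shares of all tested genes were 12.4% and 4.53%. Oxidase genes and the sensors below could pass the filter through U937 alone, so the shares called are no measure of either list. NCF4, a cytosolic subunit, stood at 46.1 and 121 FPKM in U937, against 0 and 0.00408 FPKM in PC3M (log2 difference 7.23 ± 0.65 as deposited and 6.97 ± 0.52 after scaling). CYBA, the small membrane subunit, stood at 45.0 and 203 FPKM in U937, against 0.144 and 0.225 FPKM in PC3M (log2 difference 7.14 ± 0.84 as deposited and 6.45 ± 0.67 after scaling). CYBB, the catalytic one, stood at 2.63 and 26.7 FPKM in U937, against 0 and 0.0336 FPKM in PC3M (log2 difference 4.16 ± 0.87 as deposited and 3.81 ± 0.76 after scaling, limma adjusted p = 0.0158 and 0.014). CYBB was uneven within U937 but absent or near 0 in PC3M. Oxidase genes called higher numbered 5 with all libraries, 4 without U937 replicate 1, 4 without U937 replicate 2, 4 without PC3M replicate 1 and 2 without PC3M replicate 2. Of 20 tested innate sensors and adaptors (25 listed), 12 were higher and none was lower on both scales, beside the same shares of all tested genes. PYCARD, the inflammasome adaptor, stood at 38.2 and 80.9 FPKM in U937, against 0.146 and 0.0761 FPKM in PC3M (log2 difference 6.52 ± 0.58 as deposited and 6.04 ± 0.44 after scaling). CASP1, the protease it recruits, stood at 6.71 and 9.53 FPKM in U937, against 0.0336 and 0 FPKM in PC3M (log2 difference 4.04 ± 0.56 as deposited and 3.797 ± 0.40 after scaling). TLR4, the endotoxin receptor, stood at 8.68 and 17.4 FPKM in U937, against 0.368 and 0.215 FPKM in PC3M (log2 difference 4.02 ± 0.61 as deposited and 3.32 ± 0.56 after scaling). MYD88, its adaptor, stood at 10.3 and 26.8 FPKM in U937, against 0.509 and 0.646 FPKM in PC3M (log2 difference 3.997 ± 0.81 as deposited and 3.06 ± 0.72 after scaling). Sensors called higher numbered 13 with all libraries, 8 without U937 replicate 1, 7 without U937 replicate 2, 12 without PC3M replicate 1 and 10 without PC3M replicate 2. CYBB (0.0849 without PC3M replicate 2) and MYD88 (0.095 without U937 replicate 2, 0.0614 without PC3M replicate 2) lost the call when a library was left out, with the limma adjusted p in parentheses.

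Interferon-stimulated genes were called on both scales at shares near those of all tested genes. Of 32 tested members, 3 were higher and 2 lower on both scales, beside 12.4% and 4.53% of all tested genes. By scale, 8 were higher and 2 lower as deposited, whereas 3 were higher and 7 lower after scaling. All tested genes had 17.2% higher and 4.57% lower as deposited, and 12.8% higher and 12.3% lower after scaling. MX2, an antiviral GTPase, had 29.1 and 47.6 FPKM in U937, against 0 and 0.00213 FPKM in PC3M (log2 difference 6.23 ± 0.45 as deposited and 5.98 ± 0.33 after scaling, limma adjusted p = 0.000344 and 0.000317). BST2, tetherin, which holds budding viruses, was at 57.2 and 169 FPKM in U937, against 0 and 0 FPKM in PC3M. ISG15, the ubiquitin-like modifier, went the other way, at 5.83 and 30.4 FPKM in U937, against 237 and 218 FPKM in PC3M (log2 difference −4.02 ± 0.88 as deposited and −5.30 ± 0.83 after scaling). Both PC3M libraries were above both U937 libraries for ISG15, and both were at 0 for BST2. Interferon-stimulated members called higher numbered 8 with all libraries, 2 without U937 replicate 1, 5 without U937 replicate 2, 8 without PC3M replicate 1 and 2 without PC3M replicate 2. Of 13 antigen presentation genes outside the MHC region, 3 were higher and none was lower. They included CTSS, cathepsin S, at 12.3 and 18.7 FPKM in U937, against 0.0199 and 0.455 FPKM in PC3M (log2 difference 4.48 ± 0.54 as deposited and 3.68 ± 0.63 after scaling). NLRC5, the activator of class I genes, stood at 2.11 and 3.44 FPKM in U937, against 0.0803 and 0.0541 FPKM in PC3M (log2 difference 2.50 ± 0.43 as deposited and 2.11 ± 0.34 after scaling). Presentation genes called higher numbered 4 with all libraries, 3 without U937 replicate 1, 1 without U937 replicate 2, 7 without PC3M replicate 1 and 3 without PC3M replicate 2. ISG15 (0.101 without U937 replicate 1, 0.0709 without PC3M replicate 2) and NLRC5 (0.0522 without U937 replicate 2) lost the call when a library was left out, with the limma adjusted p in parentheses.

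Keratins and epithelial surface genes were lower in U937. Of 19 tested members (24 listed), 12 were lower and none was higher, beside 4.53% and 12.4% of all tested genes. The median log2 difference was −2.55 as deposited and −3.49 after scaling. A gene absent from U937 could pass the filter through other lines, and the list was chosen with earlier results known. The share called is thus no measure of the list, and the same limit holds for the junction and prostate lists below. KRT19, a keratin of simple epithelia, stood at 0.0285 and 0 FPKM in U937, against 177 and 57.8 FPKM in PC3M (log2 difference −7.63 ± 0.59 as deposited and −8.65 ± 0.34 after scaling, limma adjusted p = 0.000344 and 0.000317). KRT18, the partner of keratin 8, had 1.72 and 0.323 FPKM in U937, against 206 and 51.5 FPKM in PC3M (log2 difference −6.26 ± 0.85 as deposited and −7.35 ± 0.58 after scaling). TM4SF1, a tetraspanin-like protein of carcinoma cells, stood at 0.333 and 0.397 FPKM in U937, against 56.2 and 30.6 FPKM in PC3M (log2 difference −5.60 ± 0.71 as deposited and −6.72 ± 0.64 after scaling). EPCAM, the epithelial adhesion molecule, stood at 0.0579 and 0 FPKM in U937, against 36.9 and 10.5 FPKM in PC3M (log2 difference −5.26 ± 0.63 as deposited and −6.26 ± 0.37 after scaling). SFN, the epithelial 14-3-3 protein sigma, was at 0.508 and 0.0742 FPKM in U937, against 86.6 and 77.8 FPKM in PC3M (log2 difference −6.76 ± 0.50 as deposited and −7.80 ± 0.55 after scaling). Each of these was at least 10 FPKM in both PC3M libraries and under 2 FPKM in both U937 libraries. Keratin and surface members called lower numbered 12 with all libraries, 9 without U937 replicate 1, 6 without U937 replicate 2, 10 without PC3M replicate 1 and 12 without PC3M replicate 2.

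Cell junctions gave a mixed picture. Of 35 tested junction genes, 8 were lower in U937 on both scales, 17 were lower after scaling and 1 was higher. The shares of all tested genes were 4.53% lower on both scales, 12.3% lower after scaling and 12.4% higher on both scales. GJA1, connexin 43 of gap junctions, had 0.327 and 0.00594 FPKM in U937, against 39.1 and 16.3 FPKM in PC3M (log2 difference −5.32 ± 0.68 as deposited and −6.31 ± 0.40 after scaling, limma adjusted p = 0.00208 and 0.000337). CLDN4, a claudin of tight junctions, stood at 0.636 and 0.343 FPKM in U937, against 54.2 and 9.28 FPKM in PC3M (log2 difference −4.56 ± 0.75 as deposited and −5.64 ± 0.49 after scaling). PKP3, a plakophilin of desmosomes, stood at 0.103 and 0.00667 FPKM in U937, against 25.9 and 2.79 FPKM in PC3M (log2 difference −4.08 ± 0.87 as deposited and −5.02 ± 0.58 after scaling). The gene in the other direction was CTNNA1, alpha-catenin, which ties cadherins to actin and is known to be deleted in PC-3 cells. CTNNA1 was at 10.1 and 15.1 FPKM in U937, against 0.0631 and 0.0619 FPKM in PC3M (log2 difference 4.51 ± 0.58 as deposited and 4.09 ± 0.34 after scaling, limma adjusted p = 0.00212 and 0.000586). Its PC3M values were near 0 in both libraries. CDH1, E-cadherin, was low in all 4 libraries, at 0.185 and 0.245 FPKM in U937, against 0.487 and 0.181 FPKM in PC3M, and is named as a marker after its values were seen. Junction members called lower numbered 8 with all libraries, 4 without U937 replicate 1, 2 without U937 replicate 2, 8 without PC3M replicate 1 and 9 without PC3M replicate 2. CLDN4 (0.0516 without U937 replicate 2) and PKP3 (0.0819 and 0.0966 without U937 replicate 1 or 2) lost the call when a library was left out, with the limma adjusted p in parentheses.

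Of 16 tested transcription factors of epithelial and mesenchymal cells (24 listed), 2 were lower in U937 and 1 was higher on both scales. The shares of all tested genes were 4.53% and 12.4%. After scaling 6 were lower, beside 12.3% of all tested genes. FOXA1, a pioneer factor of prostate and breast epithelium, stood at 0.14 and 0 FPKM in U937, against 25.4 and 16.04 FPKM in PC3M (log2 difference −5.19 ± 0.54 as deposited and −6.19 ± 0.45 after scaling, limma adjusted p = 0.000862 and 0.000383). ELF3, an Ets factor of epithelia, had 1.74 and 0.0415 FPKM in U937, against 10.9 and 8.44 FPKM in PC3M (log2 difference −3.19 ± 0.76 as deposited and −4.17 ± 0.84 after scaling). The higher one was ZEB2, a repressor of E-cadherin that monocytes and other blood cells also use, at 26.02 and 26.6 FPKM in U937, against 0.19 and 0.0131 FPKM in PC3M (log2 difference 5.49 ± 0.68 as deposited and 5.16 ± 0.58 after scaling, limma adjusted p = 0.00184 and 0.00169). ELF3 (0.14 without U937 replicate 2, 0.0599 and 0.0938 without PC3M replicate 1 or 2, 0.05 and 0.0505 without HEK293 replicate 1 or 2) lost the call when that library was left out, with the limma adjusted p in parentheses.

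Prostate-linked genes differed in both directions. Of 10 tested luminal genes, 3 were lower in U937 and 2 were higher, beside 4.53% and 12.4% of all tested genes. HOXB13, the homeobox factor of the prostate, was at 0.0978 and 0 FPKM in U937, against 47.5 and 15.6 FPKM in PC3M (log2 difference −5.67 ± 0.68 as deposited and −6.67 ± 0.41 after scaling, limma adjusted p = 0.00163 and 0.00033). SPDEF, an Ets factor of prostate epithelium, stood at 0.0518 and 0.0104 FPKM in U937, against 14.8 and 3.41 FPKM in PC3M (log2 difference −3.86 ± 0.59 as deposited and −4.82 ± 0.36 after scaling). STEAP1, a surface metalloreductase family member of prostate cancer, stood at 0.0733 and 0 FPKM in U937, against 14.7 and 4.6 FPKM in PC3M (log2 difference −4.04 ± 0.72 as deposited and −5.01 ± 0.39 after scaling). FKBP5, a chaperone that glucocorticoids induce, was higher in U937, at 203 and 275 FPKM in U937, against 3.88 and 1.39 FPKM in PC3M (log2 difference 6.36 ± 0.78 as deposited and 5.25 ± 0.46 after scaling). The other higher member was ACPP, prostatic acid phosphatase, at 2.69 and 4.61 FPKM in U937, against 0.184 and 0.145 FPKM in PC3M (log2 difference 2.60 ± 0.40 as deposited and 2.03 ± 0.36 after scaling). STEAP1 (0.0529 and 0.0638 without U937 replicate 1 or 2) lost the call when that library was left out, with the limma adjusted p in parentheses.

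A neighbour of HOXB13 was lower in U937 as well. In the RefSeq order the genes run HOXB9, PRAC2, PRAC1, HOXB13 and TTLL6. PRAC, the name in the deposited table for PRAC1, a small nuclear protein of prostate, rectum and colon, had 0.271 and 0 FPKM in U937, against 289 and 359 FPKM in PC3M (log2 difference −9.02 ± 0.61 as deposited and −10.03 ± 0.72 after scaling, limma adjusted p = 0.000344 and 0.000376). HOXB9, the next HOX gene on that side, was at 0.152 and 0.00696 FPKM in U937, against 0.18 and 0.235 FPKM in PC3M. It was under 0.5 FPKM in all 4 libraries and did not pass, while HEK293 had it at 64.8 and 108 FPKM. HOXB9 is named for its place, after its values were seen. Elsewhere among 36 tested HOX genes, 8 were higher in U937 and 2 were lower, HOXB13 being one of the lower. The shares of all tested genes were 12.4% and 4.53%. HOXC10 stood at 5.45 and 8.77 FPKM in U937, against 0 and 0.0446 FPKM in PC3M (log2 difference 3.83 ± 0.52 as deposited and 3.47 ± 0.37 after scaling). HOXC6 stood at 4.8 and 4.68 FPKM in U937, against 0 and 0 FPKM in PC3M. HOX members called higher numbered 8 with all libraries, 2 without U937 replicate 1, 2 without U937 replicate 2, 9 without PC3M replicate 1 and 2 without PC3M replicate 2. HOXC6 (0.126 and 0.137 without U937 replicate 1 or 2, 0.0722 and 0.136 without PC3M replicate 1 or 2, 0.0617 and 0.0626 without HEK293 replicate 1 or 2) lost the call when that library was left out, with the limma adjusted p in parentheses.

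Several of the largest differences toward PC3M were secreted or enzyme genes outside the lists. MSMP, first described as a small protein that PC-3 cells secrete, stood at 8.58 and 5.42 FPKM in U937, against 1486 and 715 FPKM in PC3M (log2 difference −7.14 ± 0.67 as deposited and −8.39 ± 0.50 after scaling, limma adjusted p = 0.000617 and 0.000329). CRABP2, a carrier of retinoic acid, stood at 1.97 and 1.14 FPKM in U937, against 233 and 332 FPKM in PC3M (log2 difference −7.12 ± 0.59 as deposited and −8.30 ± 0.70 after scaling). ALDH1A3, which makes retinoic acid, stood at 0.107 and 0.333 FPKM in U937, against 183 and 31.4 FPKM in PC3M (log2 difference −6.75 ± 0.89 as deposited and −7.86 ± 0.55 after scaling). PRDX2, a peroxide-removing enzyme, had 0.336 and 0.274 FPKM in U937, against 234 and 48.7 FPKM in PC3M (log2 difference −7.06 ± 0.84 as deposited and −8.16 ± 0.44 after scaling). PFN2, a profilin best known from neurons, was at 0.265 and 0.0989 FPKM in U937, against 101 and 71.9 FPKM in PC3M (log2 difference −6.99 ± 0.61 as deposited and −8.04 ± 0.42 after scaling). PRSS3, mesotrypsin, stood at 0.258 and 0 FPKM in U937, against 259 and 129.7 FPKM in PC3M (log2 difference −8.22 ± 0.58 as deposited and −9.23 ± 0.41 after scaling), with the limit that trypsinogen genes are alike and can share reads. ARHGAP29, a GTPase-activating protein, had 0.218 and 0.0195 FPKM in U937, against 39.9 and 54.3 FPKM in PC3M (log2 difference −6.27 ± 0.59 as deposited and −7.29 ± 0.64 after scaling). For all 7 genes both PC3M libraries stood far above both U937 libraries, and MSMP and CRABP2 were the ones above 1 FPKM in both U937 libraries.

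Integrin genes differed in both directions. Of 18 tested integrin genes, 5 were higher and 3 lower in U937, beside 12.4% and 4.53% of all tested genes. Among the leukocyte chains, ITGB2, the beta chain CD18, stood at 70.9 and 175 FPKM in U937, against 0.138 and 0.00867 FPKM in PC3M (log2 difference 7.62 ± 0.59 as deposited and 7.31 ± 0.43 after scaling, limma adjusted p = 0.000344 and 0.000317). ITGA4, of the VLA-4 receptor, stood at 51.6 and 61.6 FPKM in U937, against 0 and 0.00501 FPKM in PC3M (log2 difference 6.82 ± 0.51 as deposited and 6.56 ± 0.38 after scaling). ITGA5, the fibronectin receptor chain, was also higher, at 58.1 and 125 FPKM in U937, against 9.12 and 2.01 FPKM in PC3M (log2 difference 4.12 ± 0.80 as deposited and 2.96 ± 0.40 after scaling). ITGA3, the laminin receptor chain, was lower, at 0.908 and 1.26 FPKM in U937, against 47.6 and 15.2 FPKM in PC3M (log2 difference −4.13 ± 0.69 as deposited and −5.31 ± 0.41 after scaling). ITGB1, the shared beta chain of matrix receptors, was high in both lines, at 59.9 and 74.7 FPKM in U937, against 66.3 and 15.6 FPKM in PC3M, and did not pass (limma adjusted p = 0.349 and 0.72). Integrins called higher numbered 6 with all libraries, 4 without U937 replicate 1, 3 without U937 replicate 2, 5 without PC3M replicate 1 and 5 without PC3M replicate 2, and those called lower 3 with all libraries, 0 without U937 replicate 1, 1 without U937 replicate 2, 3 without PC3M replicate 1 and 5 without PC3M replicate 2. ITGA5 (0.0812 without U937 replicate 2) and ITGA3 (0.0522 without U937 replicate 1) lost the call when a library was left out, with the limma adjusted p in parentheses.

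Of 45 focal adhesion and contractile actin genes, 6 were higher and 8 lower in U937, and 13 were lower after scaling. The shares of all tested genes were 12.4% higher and 4.53% lower on both scales, and 12.3% lower after scaling. FERMT3, the kindlin of blood cells, was at 38.0 and 88.0 FPKM in U937, against 0.481 and 0.154 FPKM in PC3M (log2 difference 6.19 ± 0.88 as deposited and 5.54 ± 0.75 after scaling). FERMT2, the widely used kindlin, stood at 0.13 and 0.0266 FPKM in U937, against 24.5 and 27.6 FPKM in PC3M (log2 difference −5.52 ± 0.59 as deposited and −6.54 ± 0.59 after scaling). PLS3, the widely used plastin, stood at 0.441 and 0.0278 FPKM in U937, against 69.1 and 15.6 FPKM in PC3M (log2 difference −5.57 ± 0.83 as deposited and −6.57 ± 0.47 after scaling). FSCN1, fascin of filopodia, stood at 0.523 and 0.818 FPKM in U937, against 122 and 14.6 FPKM in PC3M (log2 difference −5.21 ± 0.96 as deposited and −6.37 ± 0.56 after scaling). CAV1, caveolin 1, was the only one of 8 caveolar genes called on both scales, and it was lower, at 0.723 and 0.0701 FPKM in U937, against 29.4 and 6.47 FPKM in PC3M (log2 difference −4.11 ± 0.81 as deposited and −5.11 ± 0.55 after scaling). Of 43 matrix genes and proteases, 8 were lower and 4 higher on both scales, and 16 were lower after scaling. After scaling 14 of 26 laminins, collagens and glycoproteins were lower. On both scales all 7 calls among them were lower, such as COL6A1, a collagen VI chain, at 0.467 and 0.16 FPKM in U937, against 64.2 and 7.89 FPKM in PC3M (log2 difference −4.87 ± 0.92 as deposited and −5.90 ± 0.56 after scaling). The proteases and inhibitors had 4 higher and 1 lower. SERPINB2, the plasminogen activator inhibitor of monocytes, stood at 43.9 and 167 FPKM in U937, against 0.176 and 0 FPKM in PC3M (log2 difference 7.21 ± 0.98 as deposited and 6.92 ± 0.80 after scaling). MMP2, a gelatinase, stood at 5.26 and 35.4 FPKM in U937, against 0.0225 and 0.00363 FPKM in PC3M (log2 difference 4.81 ± 0.90 as deposited and 4.54 ± 0.72 after scaling). Focal adhesion members called lower numbered 8 with all libraries, 4 without U937 replicate 1, 3 without U937 replicate 2, 7 without PC3M replicate 1 and 9 without PC3M replicate 2, and those called higher 6 with all libraries, 1 without U937 replicate 1, 3 without U937 replicate 2, 12 without PC3M replicate 1 and 2 without PC3M replicate 2. Matrix members called lower numbered 8 with all libraries, 2 without U937 replicate 1, 2 without U937 replicate 2, 8 without PC3M replicate 1 and 11 without PC3M replicate 2, and those called higher 4 with all libraries, 2 without U937 replicate 1, 1 without U937 replicate 2, 8 without PC3M replicate 1 and 2 without PC3M replicate 2. FSCN1 (0.064 and 0.0524 without U937 replicate 1 or 2), CAV1 (0.0886 without U937 replicate 2) and COL6A1 (0.0548 and 0.0746 without U937 replicate 1 or 2) lost the call when a library was left out, with the limma adjusted p in parentheses. MMP2 (0.0587 without U937 replicate 2, 0.0551 without PC3M replicate 2) lost the call too.

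Growth factor receptors differed in both directions. Of 22 tested receptor tyrosine kinases, 8 were lower and 3 higher in U937, beside 4.53% and 12.4% of all tested genes. EPHA2, an ephrin receptor of epithelia, had 0.306 and 0.113 FPKM in U937, against 39.6 and 30.8 FPKM in PC3M (log2 difference −5.65 ± 0.57 as deposited and −6.70 ± 0.52 after scaling, limma adjusted p = 0.000801 and 0.000491). MET, the receptor of hepatocyte growth factor, stood at 0.226 and 0.131 FPKM in U937, against 29.6 and 6.83 FPKM in PC3M (log2 difference −4.45 ± 0.77 as deposited and −5.48 ± 0.39 after scaling). MST1R, its relative RON, stood at 0.115 and 0.0472 FPKM in U937, against 11.1 and 3.54 FPKM in PC3M (log2 difference −3.56 ± 0.53 as deposited and −4.53 ± 0.34 after scaling). IGF1R, the receptor of insulin-like growth factors, was higher, at 9.52 and 7.28 FPKM in U937, against 0.509 and 0.0759 FPKM in PC3M (log2 difference 3.53 ± 0.65 as deposited and 3.03 ± 0.57 after scaling). Receptor kinases called lower numbered 8 with all libraries, 4 without U937 replicate 1, 3 without U937 replicate 2, 5 without PC3M replicate 1 and 7 without PC3M replicate 2, and those called higher 3 with all libraries, 1 without U937 replicate 1, 0 without U937 replicate 2, 4 without PC3M replicate 1 and 2 without PC3M replicate 2. Of 26 genes of the Hippo pathway, which ties growth to cell contact, 7 were lower and 2 higher. FRMD6, an upstream regulator, was at 0.143 and 0.227 FPKM in U937, against 6.55 and 8.92 FPKM in PC3M (log2 difference −3.58 ± 0.56 as deposited and −4.64 ± 0.65 after scaling). WWTR1, the coactivator TAZ, stood at 0.348 and 0.399 FPKM in U937, against 9.8 and 3.75 FPKM in PC3M (log2 difference −2.92 ± 0.62 as deposited and −3.98 ± 0.35 after scaling). LATS1, the kinase that restrains it, stood at 8.75 and 5.73 FPKM in U937, against 0.743 and 0.316 FPKM in PC3M (log2 difference 2.91 ± 0.70 as deposited and 2.13 ± 0.61 after scaling). Hippo members called lower numbered 7 with all libraries, 1 without U937 replicate 1, 1 without U937 replicate 2, 4 without PC3M replicate 1 and 6 without PC3M replicate 2, and those called higher 3 with all libraries, 0 without U937 replicate 1, 0 without U937 replicate 2, 4 without PC3M replicate 1 and 0 without PC3M replicate 2. MET (0.057 without U937 replicate 2), IGF1R (0.0678 and 0.0575 without U937 replicate 1 or 2) and WWTR1 (0.0894 and 0.0882 without U937 replicate 1 or 2) lost the call when a library was left out, with the limma adjusted p in parentheses. LATS1 (0.12 and 0.0924 without U937 replicate 1 or 2, 0.0995 without PC3M replicate 2, 0.0562 and 0.0569 without HEK293 replicate 1 or 2) lost the call too.

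Calcium-binding proteins and secreted factors also went both ways. Of 17 tested S100 and annexin genes, 5 were lower and 2 higher in U937, with 10 lower after scaling. The shares of all tested genes were 4.53% lower and 12.4% higher on both scales, and 12.3% lower after scaling. Besides S100A16, S100A13, which takes part in the release of FGF1, stood at 3.14 and 8.42 FPKM in U937, against 325 and 619 FPKM in PC3M (log2 difference −6.30 ± 0.79 as deposited and −7.56 ± 0.87 after scaling). S100A2, of basal epithelium, stood at 0.0219 and 0.16 FPKM in U937, against 12.3 and 27.5 FPKM in PC3M (log2 difference −5.01 ± 0.63 as deposited and −6.09 ± 0.85 after scaling). S100 and annexin members called higher numbered 4 with all libraries, 0 without U937 replicate 1, 0 without U937 replicate 2, 5 without PC3M replicate 1 and 1 without PC3M replicate 2. Of 26 chemokines and cytokines, 6 were lower and 3 higher. CXCL1, which draws neutrophils, stood at 0.0679 and 0.0539 FPKM in U937, against 27.8 and 5.95 FPKM in PC3M (log2 difference −4.59 ± 0.71 as deposited and −5.59 ± 0.48 after scaling). TGFB1, a suppressive growth factor, stood at 51.1 and 129.9 FPKM in U937, against 3.79 and 0.515 FPKM in PC3M (log2 difference 5.30 ± 1.15 as deposited and 4.34 ± 0.91 after scaling). CCL2, which draws monocytes, stood at 2.15 and 39.2 FPKM in U937, against 0 and 0 FPKM in PC3M. CCL2 was uneven within U937. IL32, a cytokine of lymphocytes and epithelia, passed as deposited and not after scaling, at 109 and 312 FPKM in U937, against 1.19 and 11.7 FPKM in PC3M (log2 difference 5.35 ± 1.02 as deposited and 4.13 ± 1.31 after scaling, limma adjusted p = 0.0114 and 0.0593). Secreted factors called lower numbered 6 with all libraries, 1 without U937 replicate 1, 2 without U937 replicate 2, 4 without PC3M replicate 1 and 7 without PC3M replicate 2, and those called higher 5 with all libraries, 2 without U937 replicate 1, 0 without U937 replicate 2, 5 without PC3M replicate 1 and 1 without PC3M replicate 2. TGFB1 (0.0592 and 0.107 without U937 replicate 1 or 2, 0.105 without PC3M replicate 2), CCL2 (0.0919 without U937 replicate 2, 0.0635 and 0.123 without PC3M replicate 1 or 2, 0.054 and 0.0541 without HEK293 replicate 1 or 2) and IL32 (0.0795 without U937 replicate 2) lost the call when a library was left out, with the limma adjusted p in parentheses.

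Genes known to be altered in the parent lines were looked at one by one. RB1, the retinoblastoma protein, was at 34.8 and 38.9 FPKM in U937, against 2.13 and 0.18 FPKM in PC3M (log2 difference 4.80 ± 0.78 as deposited and 4.08 ± 0.55 after scaling, limma adjusted p = 0.00585 and 0.00336). PICALM, a partner in a gene fusion known from U937, stood at 19.4 and 24.6 FPKM in U937, against 2.93 and 0.7 FPKM in PC3M (log2 difference 3.46 ± 0.70 as deposited and 2.46 ± 0.36 after scaling), and its fusion partner MLLT10 at 6.05 and 12.5 FPKM in U937, against 7.88 and 1.74 FPKM in PC3M, which did not pass (limma adjusted p = 0.325 and 0.944). CDKN1A, the p21 inhibitor of the cell cycle, stood at 6.63 and 18.5 FPKM in U937, against 2.64 and 0.576 FPKM in PC3M (log2 difference 2.66 ± 0.76 as deposited and 1.70 ± 0.43 after scaling). CDKN2B, the p15 inhibitor, stood at 1.46 and 1.25 FPKM in U937, against 9.38 and 4.02 FPKM in PC3M (log2 difference −1.85 ± 0.55 as deposited and −2.98 ± 0.40 after scaling). MDM2, a ubiquitin ligase, stood at 11.1 and 16.5 FPKM in U937, against 5.28 and 2.36 FPKM in PC3M. CDKN2A, which codes for p16 and ARF, stood at 33.0 and 64.2 FPKM in U937, against 48.3 and 18.4 FPKM in PC3M. Neither of these 2 passed, at limma adjusted p of 0.0728 and 0.636 as deposited. PICALM (0.0661 and 0.0855 without U937 replicate 1 or 2), CDKN1A (0.0732 and 0.208 without U937 replicate 1 or 2, 0.153 without PC3M replicate 2, 0.0507 without EaHy replicate 1, 0.0794 and 0.0791 without HEK293 replicate 1 or 2) and CDKN2B (0.144 and 0.193 without U937 replicate 1 or 2, 0.0878 without PC3M replicate 1, 0.0506 without EaHy replicate 2, 0.0979 and 0.0968 without HEK293 replicate 1 or 2) lost the call when a library was left out, with the limma adjusted p in parentheses.

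Of 10 tested cancer-testis genes (22 listed), 4 were lower in U937 and 1 was higher, beside 4.53% and 12.4% of all tested genes. MAGEA12 stood at 0.073 and 0.0367 FPKM in U937, against 66.6 and 16.2 FPKM in PC3M (log2 difference −5.92 ± 0.71 as deposited and −6.94 ± 0.46 after scaling, limma adjusted p = 0.00161 and 0.000366), MAGEA3 at 0.0683 and 0.08 FPKM in U937, against 54.2 and 11.03 FPKM in PC3M and MAGEA6 at 0.0686 and 0.0494 FPKM in U937, against 40.7 and 8.86 FPKM in PC3M. MAGEA3 and MAGEA6 are nearly identical, so their separate levels are uncertain. The higher one was XAGE1B, at 51.8 and 101 FPKM in U937, against 0 and 0 FPKM in PC3M, which has close copies too. GTSF1, a gene of germ cells that acts in the piRNA pathway, was another of the 15 largest increases in U937, at 92.1 and 137 FPKM in U937, against 0 and 0 FPKM in PC3M.

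The enzymes and receptors of lipid mediators bear on the aim of the study. Of 20 tested enzymes, 3 were higher and 2 lower in U937, beside 12.4% and 4.53% of all tested genes. After scaling 7 were lower, beside 12.3% of all tested genes. ALOX5AP, which presents arachidonic acid to 5-lipoxygenase, stood at 42.3 and 103 FPKM in U937, against 0 and 0 FPKM in PC3M (limma adjusted p = 0.000344 and 0.000317). PTGS1, cyclooxygenase 1, had 7.42 and 5.63 FPKM in U937, against 0.0478 and 0.246 FPKM in PC3M (log2 difference 3.45 ± 0.56 as deposited and 2.79 ± 0.58 after scaling). CYP2J2, an epoxygenase that makes EETs, stood at 0.0234 and 0.0105 FPKM in U937, against 2.35 and 4.19 FPKM in PC3M (log2 difference −2.82 ± 0.44 as deposited and −3.78 ± 0.66 after scaling, limma adjusted p = 0.00483 and 0.00877). EPHX4, of the epoxide hydrolase family, stood at 0.0839 and 0.014 FPKM in U937, against 4.05 and 5.02 FPKM in PC3M (log2 difference −3.19 ± 0.46 as deposited and −4.16 ± 0.57 after scaling). CYP2J2 was present at a low level in both PC3M libraries and near 0 in both U937 libraries. Enzymes called higher numbered 4 with all libraries, 2 without U937 replicate 1, 2 without U937 replicate 2, 4 without PC3M replicate 1 and 2 without PC3M replicate 2.

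Of 28 tested GPCRs for lipids, 9 were higher and 2 lower as deposited, and 5 were higher and 5 lower after scaling. The shares of all tested genes were 17.2% and 4.57% as deposited, and 12.8% and 12.3% after scaling. CYSLTR1, a receptor of cysteinyl leukotrienes, was at 13.3 and 13.6 FPKM in U937, against 0 and 0 FPKM in PC3M (limma adjusted p = 0.000344 and 0.000475). S1PR4, a sphingosine 1-phosphate receptor of leukocytes, stood at 6.01 and 27.6 FPKM in U937, against 0 and 0.0169 FPKM in PC3M (log2 difference 4.73 ± 0.64 as deposited and 4.43 ± 0.50 after scaling). The 2 lower ones were receptors of lysophosphatidic acid, LPAR1 at 0.117 and 0.0241 FPKM in U937, against 28.6 and 15.2 FPKM in PC3M (log2 difference −5.23 ± 0.66 as deposited and −6.24 ± 0.44 after scaling) and LPAR3 at 0.117 and 0 FPKM in U937, against 14.7 and 18.2 FPKM in PC3M (log2 difference −4.92 ± 0.50 as deposited and −5.93 ± 0.58 after scaling, limma adjusted p = 0.000801 and 0.00103). GPR132, the receptor named in the title of the study, had 1.82 and 3.81 FPKM in U937, against 0 and 6.42 FPKM in PC3M. Its PC3M libraries lay on both sides of the U937 libraries, and the log2 difference 0.76 ± 1.05 as deposited and −0.29 ± 1.52 after scaling did not pass (limma adjusted p = 0.617 and 0.903). GPR132 stands outside the naming rule. Lipid receptors called higher numbered 9 with all libraries, 7 without U937 replicate 1, 5 without U937 replicate 2, 7 without PC3M replicate 1 and 5 without PC3M replicate 2.

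Chemoattractant receptors were higher in U937 for 7 of 10 tested genes (21 listed) and lower for none. A receptor made in U937 could pass the filter through U937 alone, so the share is no measure of the list. CXCR4, the receptor of CXCL12, was at 41.8 and 87.0 FPKM in U937, against 1.32 and 0.399 FPKM in PC3M (log2 difference 5.57 ± 0.69 as deposited and 4.69 ± 0.57 after scaling, limma adjusted p = 0.00191 and 0.00219). C5AR1, of complement C5a, stood at 3.79 and 4.03 FPKM in U937, against 0.035 and 0.0165 FPKM in PC3M (log2 difference 3.07 ± 0.47 as deposited and 2.79 ± 0.45 after scaling). CXCR2, of CXC chemokines, was at 2.34 and 6.002 FPKM in U937, against 0 and 0.196 FPKM in PC3M (log2 difference 2.86 ± 0.53 as deposited and 2.27 ± 0.53 after scaling). CCR1 stood at 2.02 and 3.58 FPKM in U937, against 0 and 0 FPKM in PC3M. Of 57 other GPCRs, 14 were higher and 9 lower, beside 12.4% and 4.53% of all tested genes. GPR124, an adhesion receptor best known from brain endothelium, was the highest of those called in U937, at 59.8 and 81.8 FPKM in U937, against 0.27 and 0.158 FPKM in PC3M (log2 difference 6.63 ± 0.54 as deposited and 6.0004 ± 0.37 after scaling). SUCNR1, the succinate receptor, stood at 14.1 and 19.8 FPKM in U937, against 0 and 0 FPKM in PC3M. P2RY8, a receptor of B cells and other leukocytes, stood at 8.13 and 27.5 FPKM in U937, against 0 and 0.00328 FPKM in PC3M (log2 difference 4.95 ± 0.58 as deposited and 4.70 ± 0.44 after scaling). LPHN2, a latrophilin, was lower, at 0.0662 and 0.00316 FPKM in U937, against 11.8 and 13.01 FPKM in PC3M (log2 difference −4.59 ± 0.54 as deposited and −5.59 ± 0.53 after scaling). Other GPCRs called higher numbered 15 with all libraries, 12 without U937 replicate 1, 6 without U937 replicate 2, 16 without PC3M replicate 1 and 6 without PC3M replicate 2, and those called lower 9 with all libraries, 3 without U937 replicate 1, 1 without U937 replicate 2, 8 without PC3M replicate 1 and 8 without PC3M replicate 2.

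**Figure D4:**
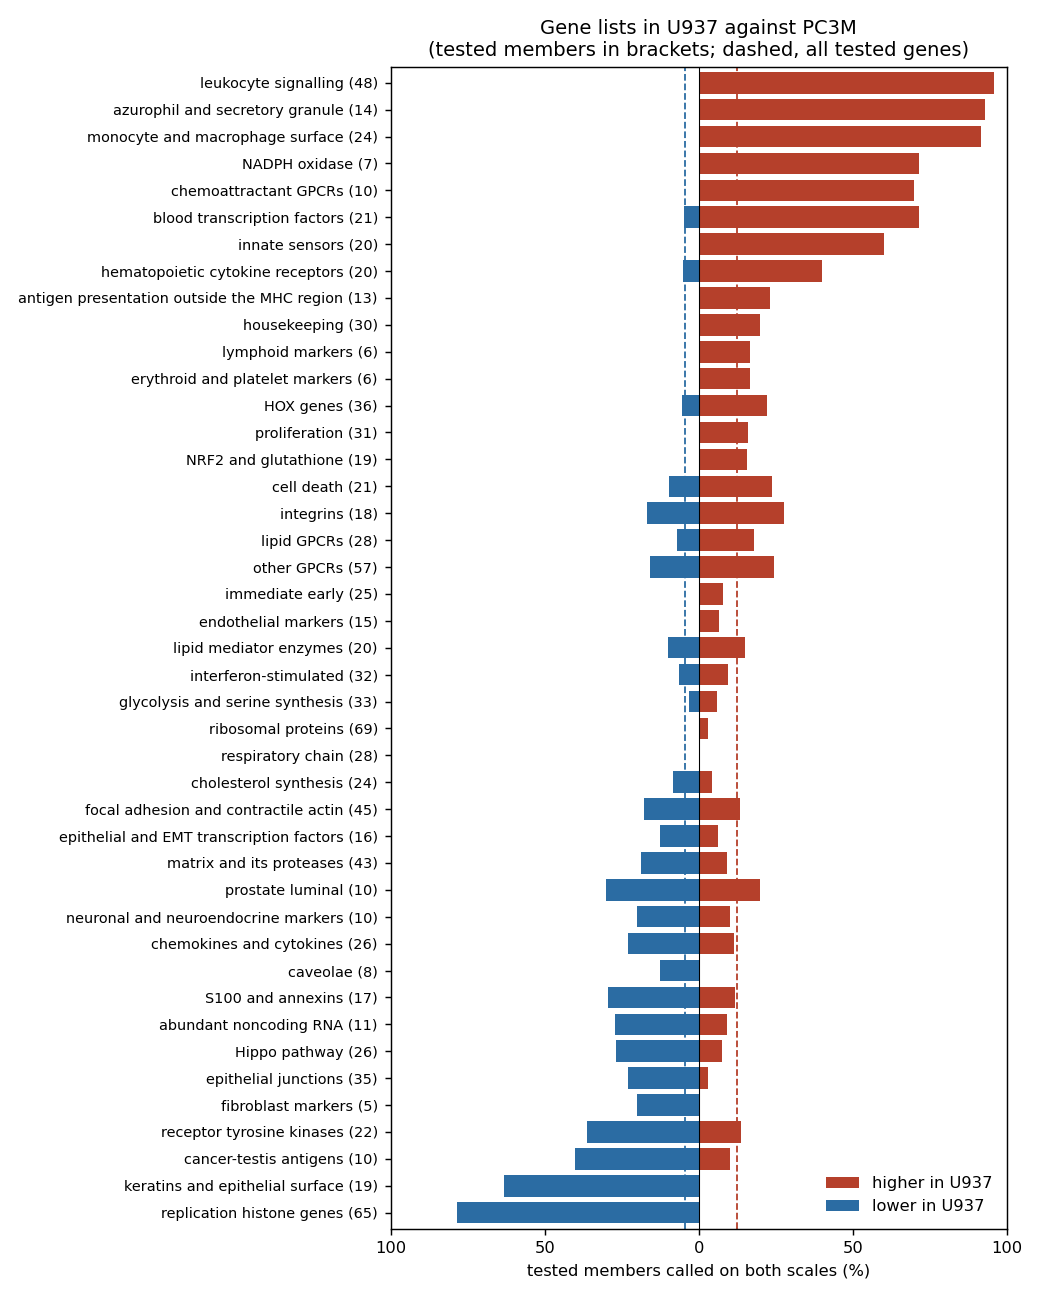
Percent of the tested members of each gene list called higher (red, right) or lower (blue, left) in U937 than in PC3M on both scales, with the number tested in brackets. Dashed lines mark the share over all tested genes, 12.4% higher and 4.53% lower. Leukocyte signalling, granule and monocyte surface genes stand at the top, and replication histone and keratin genes at the bottom. Shares of the blood and epithelial lists are no measure of them, since a gene could pass the filter through a single line.

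Lists for ribosomes and metabolism were read against the 12.4% of all tested genes higher and 4.53% lower on both scales. Of 69 ribosomal protein genes, 2 were higher and none was lower on both scales, and of 28 respiratory chain genes none passed on both. The median log2 difference of the ribosomal protein genes was 0.06 as deposited and −1.22 after scaling, and that of the respiratory chain genes 0.51 and −0.74. Both lists stood below the median of all genes on each scale. Of 33 genes of glycolysis and serine synthesis, 2 were higher and 1 was lower. The lower one was PFKM, the muscle form of phosphofructokinase, at 0.296 and 0.79 FPKM in U937, against 30.2 and 6.52 FPKM in PC3M (log2 difference −3.86 ± 0.80 as deposited and −5.00 ± 0.39 after scaling, limma adjusted p = 0.0155 and 0.000508). SLC2A3 was higher, at 10.4 and 4.89 FPKM in U937, against 0.02 and 0.119 FPKM in PC3M (log2 difference 3.75 ± 0.62 as deposited and 3.26 ± 0.75 after scaling). Glycolysis and serine members called higher numbered 3 with all libraries, 0 without U937 replicate 1, 1 without U937 replicate 2, 10 without PC3M replicate 1 and 1 without PC3M replicate 2. Of 24 cholesterol synthesis genes, 2 were lower and 1 was higher. HSD17B7, an enzyme of the pathway, stood at 0.841 and 0.418 FPKM in U937, against 23.3 and 32.4 FPKM in PC3M (log2 difference −4.66 ± 0.69 as deposited and −5.77 ± 0.84 after scaling). Of 19 genes of NRF2 and glutathione, 3 were higher. GSTM1, a glutathione transferase that many people lack, stood at 10.4 and 30.3 FPKM in U937, against 0 and 0 FPKM in PC3M. NRF2 members called higher numbered 4 with all libraries, 1 without U937 replicate 1, 2 without U937 replicate 2, 6 without PC3M replicate 1 and 1 without PC3M replicate 2. PFKM (0.0942 and 0.0629 without U937 replicate 1 or 2) and SLC2A3 (0.0535 without U937 replicate 1) lost the call when a library was left out, with the limma adjusted p in parentheses.

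For cell death, cell cycle and housekeeping genes the counts moved with single libraries, and all tested genes also had more members higher (12.4%) than lower (4.53%) in U937. Of 21 cell death genes, 5 were higher and 2 lower. BCL2L11, the death activator BIM, had 19.1 and 19.7 FPKM in U937, against 0.718 and 0.386 FPKM in PC3M (log2 difference 4.26 ± 0.62 as deposited and 3.42 ± 0.47 after scaling, limma adjusted p = 0.00362 and 0.00361). BCL2L1, the death inhibitor BCL-XL, was at 32.6 and 80.3 FPKM in U937, against 5.7 and 1.5 FPKM in PC3M (log2 difference 3.88 ± 0.82 as deposited and 2.75 ± 0.41 after scaling). TNFRSF12A, the TWEAK receptor, was lower, at 1.82 and 5.51 FPKM in U937, against 163 and 29.3 FPKM in PC3M (log2 difference −4.22 ± 0.90 as deposited and −5.47 ± 0.48 after scaling). Cell death members called higher numbered 8 with all libraries, 4 without U937 replicate 1, 1 without U937 replicate 2, 8 without PC3M replicate 1 and 2 without PC3M replicate 2. Of 31 proliferation genes, 5 were higher and none was lower on both scales, and 6 were higher and 1 lower after scaling. Their median log2 difference was 2.01 as deposited and 0.77 after scaling. MKI67 and MCM6 were named for their large differences and do not stand for the list. MKI67, the marker of cycling cells, stood at 50.9 and 45.6 FPKM in U937, against 1.57 and 0.384 FPKM in PC3M (log2 difference 5.17 ± 1.18 as deposited and 4.29 ± 1.09 after scaling). MCM6, of the replicative helicase, stood at 102 and 187 FPKM in U937, against 12.4 and 2.87 FPKM in PC3M (log2 difference 4.40 ± 0.90 as deposited and 3.20 ± 0.49 after scaling). Proliferation members called higher numbered 6 with all libraries, 0 without U937 replicate 1, 0 without U937 replicate 2, 19 without PC3M replicate 1 and 0 without PC3M replicate 2. Of 30 housekeeping genes, 6 were higher and none was lower on both scales. Housekeeping genes called higher numbered 6 with all libraries, 1 without U937 replicate 1, 1 without U937 replicate 2, 11 without PC3M replicate 1 and 1 without PC3M replicate 2. BCL2L1 (0.105 without U937 replicate 2, 0.0749 without PC3M replicate 2), TNFRSF12A (0.101 without U937 replicate 1) and MKI67 (0.0988 and 0.0947 without U937 replicate 1 or 2, 0.118 without PC3M replicate 2) lost the call when a library was left out, with the limma adjusted p in parentheses. MCM6 (0.0562 and 0.0906 without U937 replicate 1 or 2, 0.0697 without PC3M replicate 2) lost the call too.

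Markers of other cell types were counted as well, in lists too short to set against the 12.4% of all tested genes higher and 4.53% lower on both scales. Tested were 6 of 20 listed lymphoid genes, 6 of 13 erythroid and platelet genes, 15 of 16 endothelial genes, 10 of 18 neuronal and neuroendocrine genes and 5 of 11 fibroblast genes. Higher in U937 on both scales were 1 of 6 tested lymphoid genes, 1 of 6 erythroid and platelet genes, 1 of 15 endothelial genes, 1 of 10 neuronal and neuroendocrine genes and none of 5 fibroblast genes. Lower on both scales were 2 of the neuronal and 1 of the fibroblast genes. NKG7, a granule membrane protein of killer cells, stood at 1.95 and 16.3 FPKM in U937, against 0 and 0 FPKM in PC3M. NEFL, a neurofilament chain, was lower in U937, at 0.121 and 0 FPKM in U937, against 26.6 and 5.24 FPKM in PC3M (log2 difference −4.48 ± 0.74 as deposited and −5.46 ± 0.44 after scaling, limma adjusted p = 0.00635 and 0.000546). NKG7 (0.0872 without PC3M replicate 2) and NEFL (0.0549 without U937 replicate 2) lost the call when a library was left out, with the limma adjusted p in parentheses.

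Replication histone genes, whose RNA carries no poly(A) tail, were lower in U937 for most members. Of 65 tested replication histone genes, 51 were lower in U937 and none was higher, with a median log2 difference of −7.35 as deposited and −8.47 after scaling. TERC, the RNA of telomerase, had 0.891 and 0.349 FPKM in U937, against 648 and 893 FPKM in PC3M (log2 difference −9.45 ± 1.59 as deposited and −10.56 ± 1.86 after scaling, limma adjusted p = 0.00677 and 0.00923). RMRP, the RNA of a ribonuclease, was at 648 and 12.3 FPKM in U937, against 475789 and 506736 FPKM in PC3M (log2 difference −12.39 ± 2.96 as deposited and −13.66 ± 3.48 after scaling). RMRP differed widely between the U937 libraries too. Small RNA genes were called in both directions. Of 662 tested, 41 were higher and 37 lower in U937, beside 12.4% and 4.53% of all tested genes. Their median log2 difference was 1.25 as deposited and 1.20 after scaling, and −2.53 and −3.59 without the 418 genes at 0 in both libraries of a line. SNHG5, a spliced host gene of small nucleolar RNAs, was higher in U937, at 596 and 606 FPKM in U937, against 32.4 and 17.1 FPKM in PC3M (log2 difference 4.65 ± 0.65 as deposited and 3.38 ± 0.43 after scaling). The make-up of the libraries moved with these genes, and its part in them was not tested. TERC (0.0518 without PC3M replicate 2) and RMRP (0.141 without U937 replicate 2, 0.0625 and 0.123 without PC3M replicate 1 or 2) lost the call when a library was left out, with the limma adjusted p in parentheses.

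Transcript length moved with the difference as well. Lengths were known for 13097 of 14191 tested genes outside the small RNA, histone and unnamed ones (92.3%), from GENCODE 29. Of 479 genes with a longest protein-coding transcript under 1 kb, 11.3% were higher in U937 as deposited, against 26% of 1100 genes of 8 kb or more. After scaling, 25.3% of the short and 10.3% of the long genes were lower. The median log2 difference was 0.24 in the shortest and 1.18 in the longest bin as deposited, and −0.55 and 0.32 after scaling. Across genes, as a description, Spearman's rank correlation of length and difference was 0.128 as deposited and 0.136 after scaling. Libraries of the same line differed by length too. The median log2 difference of U937 replicate 1 minus replicate 2, as deposited, was −0.62 in the shortest and 0.17 in the longest bin. That of PC3M replicate 1 minus replicate 2 was 0.55 and 0.88, and was highest at 2 to 4 kb (1.09). The part of length in the results above was not tested.

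**Figure D5:**
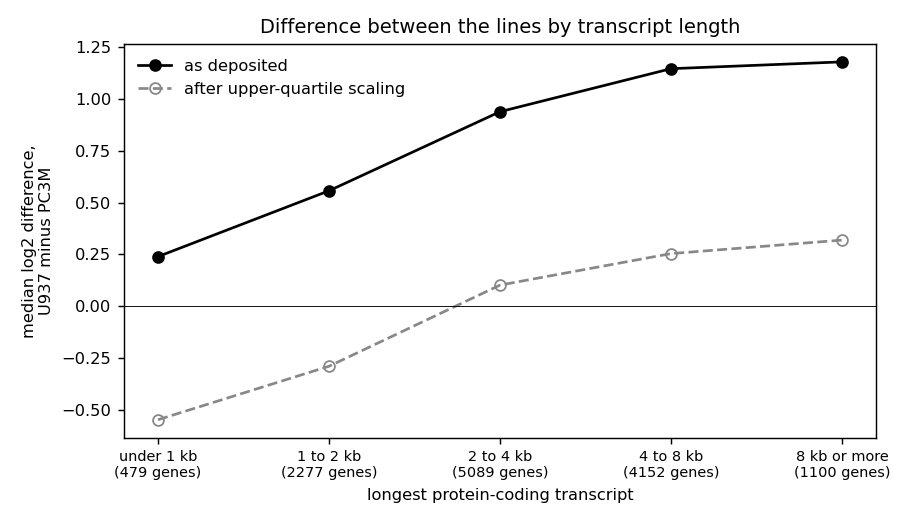
Median log2 difference, U937 minus PC3M, by the length of the longest protein-coding transcript, as deposited (filled, solid line) and after upper-quartile scaling (open, dashed line), with the number of genes under each bin. The median goes up with length on both scales, between 0.24 and 1.18 as deposited and between −0.55 and 0.32 after scaling. Differences between replicates of a line, which also varied with length, are not drawn.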

How the data were processed

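Total RNA from 8 libraries, 2 each of U937, PC3M, EaHy and HEK293, was sequenced as paired reads after removal of ribosomal RNA, per the labels' protocols. The authors deposited FPKM values per gene, and per the submitters' processing notes cutadapt, TopHat2 2.0.11 and Cufflinks 2.2.1 were used with the human build hg19. Whether counting used strand is not given in the sources used here. The low values show no steps of whole reads, so depth and counting error per library are unknown.

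Values were taken as log2(FPKM + 0.5), and a gene was kept when 2 or more libraries had it at 0.5 FPKM or above. limma 3.58.1 in R 4.3.3 was fitted to all 8 libraries with a mean per line and a variance trend, and U937 minus PC3M was tested with Benjamini-Hochberg adjustment over all tested genes at 0.05. The fit was repeated after upper-quartile scaling to the 75th percentile of tested genes, times the mean of these percentiles. The fit was tested on simulated data. Alternatives were pseudocounts of 0.1 and 1, other filters, quantile normalization, other variance models, a replicate block and single libraries left out. The fits of the scaled values with a block, with U937 and PC3M alone and with libraries left out were chosen after seeing the data.

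Replicate numbers come from the labels, and the main fit has no block for them. Same-numbered U937 and PC3M libraries deviated with r = −0.151 across genes, which cannot show whether the numbers stand for a batch. Groups were taken from the sample labels. Gene lists and members were chosen with earlier results of these data known. Named are the 15 called genes with the largest difference in each direction, small RNA, histone and unnamed genes left out, up to 4 called members per list (or the 2 highest where none was called), all members of the paralog pairs and the genes known to be altered in these lines. CEBPD, LIFR, ACPP, CFD, LCP2, BTK, PIK3CG, ARHGAP25, CDH1, HOXB9 and GPR132 stand outside this rule and were named after their values were seen. Promoter sequences are those of RefSeq for GRCh38.p14, matched by symbol, and gene order is that of RefSeq. The 1 pair of 21 in which the order was not that of the others, and some single genes that the rule names, are not reported here.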

Additional observations from a re-analysis of the deposited data

How the results depend on the processing

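The number of called genes depended on the settings. The main settings gave 2809 genes higher and 745 lower in U937 as deposited, and 2086 and 2003 after upper-quartile scaling. With no filter on low values 1557 were higher and 448 lower as deposited. Fitted to U937 and PC3M alone, 1665 were higher as deposited, and 1235 higher and 1194 lower after scaling. Against a fold of at least 2, 755 were higher and 275 lower. Quantile normalization gave 2038 lower, close to upper-quartile scaling. Leaving out each library in turn gave 831 to 4786 higher and 201 to 846 lower as deposited. The highest count of higher genes came without PC3M replicate 1 and the lowest without U937 replicate 2. After scaling, leaving out a U937 or PC3M library gave 778 to 1751 higher and 893 to 2175 lower. The cause of these shifts was not tested. The median log2 difference over all genes was 0.94 as deposited, 0.41 with no filter, 0.15 after upper-quartile scaling and 0.065 after quantile normalization, and 0.52 to 1.37 with 1 library left out. The depth in counts is unknown, so no counting error can be given for low values.

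With the replicate block 2316 genes were higher and 703 lower as deposited, and 2267 and 2149 after scaling. Same-numbered U937 and PC3M libraries deviated with r = −0.151 across genes. Such a correlation cannot show whether the numbers stand for a shared batch. With the numbers of PC3M exchanged, 2664 genes were higher and 714 lower. Of the 160 called genes named in the text, none changed direction in any of 23 alternatives, and 114 kept their call in every one. Many of them were named for large differences, so their kept direction says little of other genes.

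Genes that did not pass changed the sign of their log2 difference under some settings. After upper-quartile scaling it was −0.27 for CORO1C, −0.54 for VAV2, −0.56 for PIK3CA, −0.22 for ITGB1, −0.047 for MLLT10, −0.65 for CDKN2A and −0.29 for GPR132. After quantile normalization it was −0.77 for VAV2, −0.67 for PIK3CA, −0.11 for PLCG1, −0.23 for MLLT10, −0.090 for CDKN2A and −0.30 for GPR132. With single libraries left out it ranged over −0.97 to 0.68 for WASL, −1.18 to 0.71 for SLC2A1, −0.032 to 1.18 for VAV2, −0.091 to 2.44 for PLCG1, −0.47 to 0.068 for CDH1, −0.068 to 1.30 for CDKN2A and −1.13 to 2.66 for GPR132.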
